A study of Mus musculus with 12 samples.

Results

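H3K27me3 islands were described at 6 loci named for regulators of mesoderm and mesenchyme: T, Nkx2-5, Hand1, Hand2, Myod1 and Foxf1. H3K27me3 is the trimethylation of lysine 27 of histone H3. The loci are 6 windows of 35 or 40 kb on the mouse build mm9, given by their coordinates: chr17:8610001-8650000 for T, chr17:26960001-26995000 for Nkx2-5, chr11:57625001-57660000 for Hand1, chr8:59780001-59820000 for Hand2, chr7:53615001-53650000 for Myod1 and chr8:123590001-123630000 for Foxf1. They were set beside 24140 tiles of 40.0 kb that held an island in at least 1 of 8 libraries, of which 1691 held an island in all 8. The name of a window is that of the rule; no mm9 annotation was used here, so the place of gene starts and exons inside the windows is not given.

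H3K27me3 is written by Polycomb repressive complex 2 and is found over CpG-rich starts of developmental regulators in cells where those genes are silent. At such genes it often forms broad domains that spread over the whole gene and its surroundings, and regulators of lineages other than that of the cell are typical targets. T (brachyury) is a T-box factor of the primitive streak, nascent mesoderm and notochord. Nkx2-5 is a homeobox factor of the heart, Hand1 and Hand2 are basic helix-loop-helix factors of the heart, Hand1 also of trophoblast and Hand2 also of limb bud and neural crest derivatives, and Myod1 is the basic helix-loop-helix factor that drives skeletal muscle fate. Foxf1 is a forkhead factor of the gut and lung mesenchyme, expressed there in response to Hedgehog proteins from the neighbouring epithelium.

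Sequence around the gene start was at hand for 3 of the 6 genes in RefSeq's promoter table of GRCm38.p6, and all 6 were in its gene table. The 3 sequences are shown because CpG-rich starts are where Polycomb domains are usually centred. Each runs from before the start to just past it, 5′ to 3′ on the gene's strand, with every CG in capitals; the only motif searched was CG, which reads the same on both strands. Nkx2-5 lies on the minus strand at chr17:26841516-26841815, Hand2 on the plus strand at chr8:57320733-57321032 and T on the plus strand at chr17:8434173-8434472, all in GRCm38.p6 and not in the build of the islands.
Nkx2-5: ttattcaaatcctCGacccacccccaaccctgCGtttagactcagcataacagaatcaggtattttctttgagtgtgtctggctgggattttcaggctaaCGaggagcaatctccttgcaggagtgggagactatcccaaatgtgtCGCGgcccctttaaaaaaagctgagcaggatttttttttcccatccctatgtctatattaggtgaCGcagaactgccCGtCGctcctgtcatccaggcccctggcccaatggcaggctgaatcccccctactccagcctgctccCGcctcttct
Hand2: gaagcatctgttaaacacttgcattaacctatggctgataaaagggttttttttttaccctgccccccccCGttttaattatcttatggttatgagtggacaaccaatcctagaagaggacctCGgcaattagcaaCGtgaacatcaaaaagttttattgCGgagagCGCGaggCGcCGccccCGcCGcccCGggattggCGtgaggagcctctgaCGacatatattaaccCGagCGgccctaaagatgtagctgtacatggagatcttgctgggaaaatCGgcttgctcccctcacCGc
T: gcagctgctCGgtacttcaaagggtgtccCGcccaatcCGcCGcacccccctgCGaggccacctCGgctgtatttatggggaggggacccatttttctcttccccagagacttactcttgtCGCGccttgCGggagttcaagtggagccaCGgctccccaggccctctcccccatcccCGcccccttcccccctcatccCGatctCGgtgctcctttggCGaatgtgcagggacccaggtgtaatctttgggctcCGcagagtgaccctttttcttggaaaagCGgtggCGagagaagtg
The Hand2 and T sequences each held 17 CG, a number reached by 31.4% of the 32851 promoters of this length in the table. The Nkx2-5 sequence held 9 CG, reached by 45.8%, beside a median of 7 over all promoters. Since the builds differ, the islands could not be laid over these bases. The gene table gives the neighbours in their order along the chromosome. T lay between Gm34036 and T2 on one side and Pde10a and Gm15425 on the other, and Nkx2-5 between Crebrf and Bnip1 and the lncRNAs LOC115488773 and Gm17382. Hand1 lay between the lncRNA 2010001A14Rik and Sap30l and the lncRNA Gm33026 and the pseudogene Gm12244, and Hand2 between the pseudogene Gm17994 and the lncRNA Hand2os1 and the lncRNAs Gm34030 and Hdnr. Myod1 lay between Otog and the lncRNA Gm45923 and Kcnc1 and Sergef, and Foxf1 between the lncRNAs Gm46071 and Fendrr and Mthfsd and the forkhead gene Foxc2. Hand1 overlapped the lncRNA Gm32915 and T overlapped LOC115486424.

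The mark was measured by ChIP-seq (sequencing of DNA pulled down with an antibody to the mark) in sorted epithelium of the mouse small intestine, and the series title names the making and differentiation of adult stem cells as its subject. The 4 populations, each with 2 ChIP libraries described as biological duplicates and 1 input, were embryonic epithelium at E12.5, embryonic epithelium at E14.5, adult Lgr5+ stem cells of the crypt (ISC) and adult absorptive cells, the enterocytes (AE). All came from mixed C57BL/6 CD1 mice, and every sort took EpCAM+ cells and left out cells with CD31 or CD45. Adult cells came from Lgr5EGFP-Cre-ERT males at P60, in which EGFP is made from the Lgr5 locus; ISC were the cells with high EGFP, while the labels give enterocytes the same surface gate as the embryonic epithelium and name no transgene for the embryos. How many animals went into a library is not given in the sources used here, so p-values measure the spread between these libraries. The lists hold no expression values and no gene names, so neither the cell type labels nor the silence of the 6 genes could be checked. In a population of cells, fewer cells with the mark and less mark per cell cannot be told apart.

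Each library came as 1 list of islands called by the authors against the input of its population. The lists held 6171 to 17407 islands over 60.8 to 241 Mb, with 1171968 to 6627853 ChIP reads inside islands. ISC replicate 1 stood apart, with 241 Mb against 60.8 Mb in ISC replicate 2, and the other 6 lists covered 62.5 to 109 Mb. No replicate repeated the other of its population: intervals shared exactly by replicates had equal ChIP counts in 1 of 52 cases for E14.5 and in none of the 30 E12.5, 17 ISC and 41 AE cases.

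All 6 loci carried an island in all 8 libraries, that is in 48 of 48 pairs of locus and library, against 7% of the tiles with an island in any library. A total of 76 islands lay over the windows, and the highest false discovery rate (FDR, the authors' value) among them was 0.00164. The length covered in all 8 libraries was 25.0 kb at Hand2, 23.6 kb at Foxf1, 23.0 kb at Nkx2-5, 16.8 kb at Hand1, 9.6 kb at T and 6.0 kb at Myod1. With islands held to an FDR of 1e-10 it was 9.8 kb at Hand1 and 0.0 kb at Myod1, and keeping islands whose fold was at least 1.5 left 0.0 kb at both. Only 2.71% of the tiles held as much length covered in all 8 libraries as the Myod1 window. The mean covered share over 8 libraries was 89.2% at Nkx2-5, 81.1% at Hand2, 73.8% at Foxf1, 66.4% at Hand1, 59.6% at Myod1 and 56.4% at T, beside a median of 40.0% for tiles with an island in all 8 libraries. Among those 1691 tiles, T stood at the 75.3rd and Myod1 at the 79.8th percentile, Hand1 at the 85.9th, Foxf1 at the 91.1st, Hand2 at the 94.3rd and Nkx2-5 at the 97.0th. The loci were chosen with results of these lists known, so these positions are a description.

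**Figure D1:**
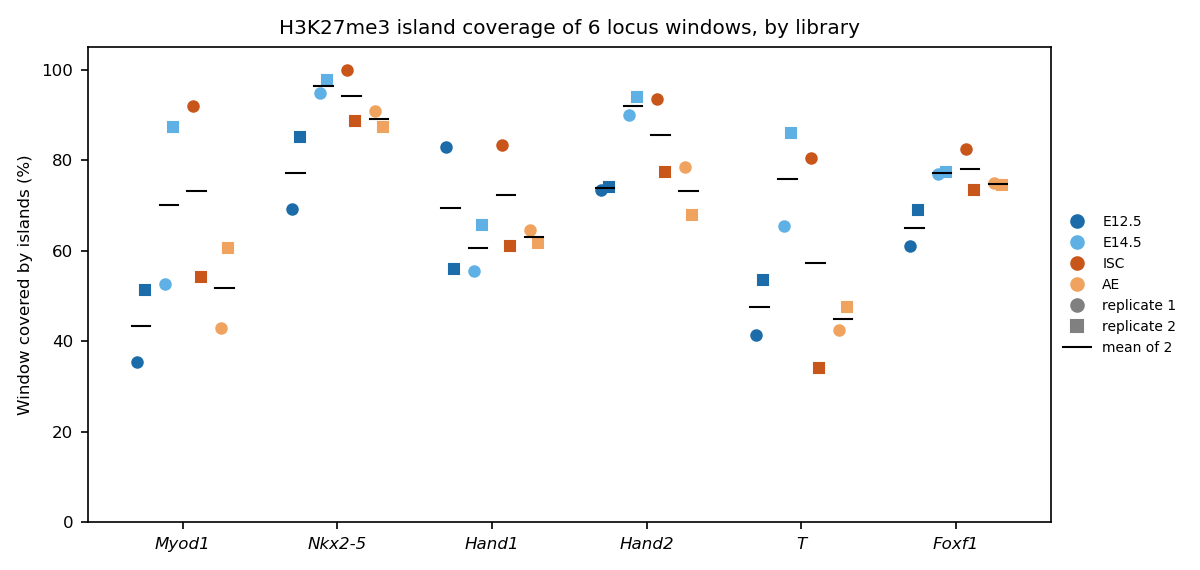
Percent of each window covered by H3K27me3 islands (y axis) at the 6 loci (x axis), with 1 point per library, colours for the 4 populations, circles for replicate 1, squares for replicate 2 and a line at the mean of the 2 libraries. Every point lies above 0, the Nkx2-5 window is covered from 69.1 to 100%, and T and Myod1 spread most.

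T, the regulator of the earliest mesoderm, was covered over 41.5 and 53.5% of its window in the E12.5 libraries, 65.5 and 86.0% in the E14.5 libraries, 80.5 and 34.0% in the ISC libraries and 42.5 and 47.5% in the AE libraries. Coverage was high in both E14.5 libraries and in ISC replicate 1 and low in the other ISC library, in AE and in E12.5 replicate 1. A single stretch of 9.6 kb, chr17:8621801-8631400, was covered in every library, and all the islands that hold it began within 9.4 kb and ended within 12 kb of each other. The shortest of them was the 13.6 kb island of ISC replicate 2 and the longest the 27.4 kb island of E14.5 replicate 2. The right part of the window, from 8643001 on, held a further island in E12.5 replicate 2, both E14.5 libraries and ISC replicate 1.

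Nkx2-5, the heart homeobox gene, had the widest cover. The islands took 69.1 and 85.1% of the window in the E12.5 libraries, 94.9 and 97.7% in the E14.5 libraries, 100 and 88.6% in the ISC libraries and 90.9 and 87.4% in the AE libraries. E12.5 replicate 1 was lowest and ISC replicate 1 was covered from end to end. The window ranked first of the 6 in 7 of 8 lists, and Hand1 was first in E12.5 replicate 1. In 7 of 8 libraries a single island of 29.6 to 62.2 kb held the core, and in AE replicate 2 a gap left 20.4 kb. The longest stretch shared by all was 12.8 kb, chr17:26970801-26983600. Every island over it that was not cut by that gap ran past the right edge of the window.

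Hand2 was covered over 73.5 and 74.0% of its window in the E12.5 libraries, 90.0 and 94.0% in the E14.5 libraries, 93.5 and 77.5% in the ISC libraries and 78.5 and 68.0% in the AE libraries. Both E14.5 libraries and ISC replicate 1 were at 90.0% or above, and the other 5 libraries at 78.5% or below. The longest shared stretch was 14.0 kb, chr8:59795401-59809400. The authors' fold over control of the longest island there was 2.09 and 4.73 in the E12.5 libraries, 4.54 and 6.07 in the E14.5 libraries, 3.79 and 2.36 in the ISC libraries and 2.28 and 2.36 in the AE libraries.

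Hand1, the relative of Hand2, was covered over 82.9 and 56.0% of the window in the E12.5 libraries, 55.4 and 65.7% in the E14.5 libraries, 83.4 and 61.1% in the ISC libraries and 64.6 and 61.7% in the AE libraries. Coverage was high in 1 library of E12.5 and 1 of ISC, and the other 6 libraries lay between 55.4 and 65.7%. In the high E12.5 library the longest island was 23.8 kb, at the 63.1st percentile of fold in its list, and in E12.5 replicate 2 it was 19.6 kb, at the 88.6th. The longest shared stretch was 9.8 kb, chr11:57640401-57650200, and the islands over it ended anywhere within 57.8 kb, from inside the window to 57708000 in ISC replicate 1.

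Myod1, the skeletal muscle regulator, was covered in pieces. The islands took 35.4 and 51.4% of the window in the E12.5 libraries, 52.6 and 87.4% in the E14.5 libraries, 92 and 54.3% in the ISC libraries and 42.9 and 60.6% in the AE libraries. E14.5 replicate 2 and ISC replicate 1 were high and the other 6 libraries lay at 60.6% or below. Between 2 and 4 islands overlapped the window in each library. A central island held the stretch chr7:53630401-53635400 (5.0 kb) in all 8, with folds of 1.51 and 2.61 in the E12.5 libraries, 2.01 and 2.65 in the E14.5 libraries, 2.13 and 1.92 in the ISC libraries and 1.37 and 1.62 in the AE libraries. Outside ISC replicate 1, where it was 31.0 kb long, this island measured 7.6 to 16.0 kb. A further island to its right crossed the edge of the window in every library, and the first 5.4 kb beyond that edge were covered in all 8.

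Foxf1, the regulator of the gut mesenchyme that surrounds this epithelium, was covered over 61.0 and 69.0% of its window in the E12.5 libraries, 77.0 and 77.5% in the E14.5 libraries, 82.5 and 73.5% in the ISC libraries and 75 and 74.5% in the AE libraries. The E12.5 libraries were lowest, and the range over libraries, 61.0 to 82.5%, was the narrowest of the 6 loci. A single stretch of 23.6 kb, chr8:123595001-123618600, was covered in every library. The right border of its island was the most alike of all borders, between 123618600 and 123623400, a span of 4.8 kb, whereas the left border varied over 28.2 kb. Right of the window a second domain shared 18.8 kb in all 8 libraries, chr8:123636601-123655400.

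**Figure D2:**
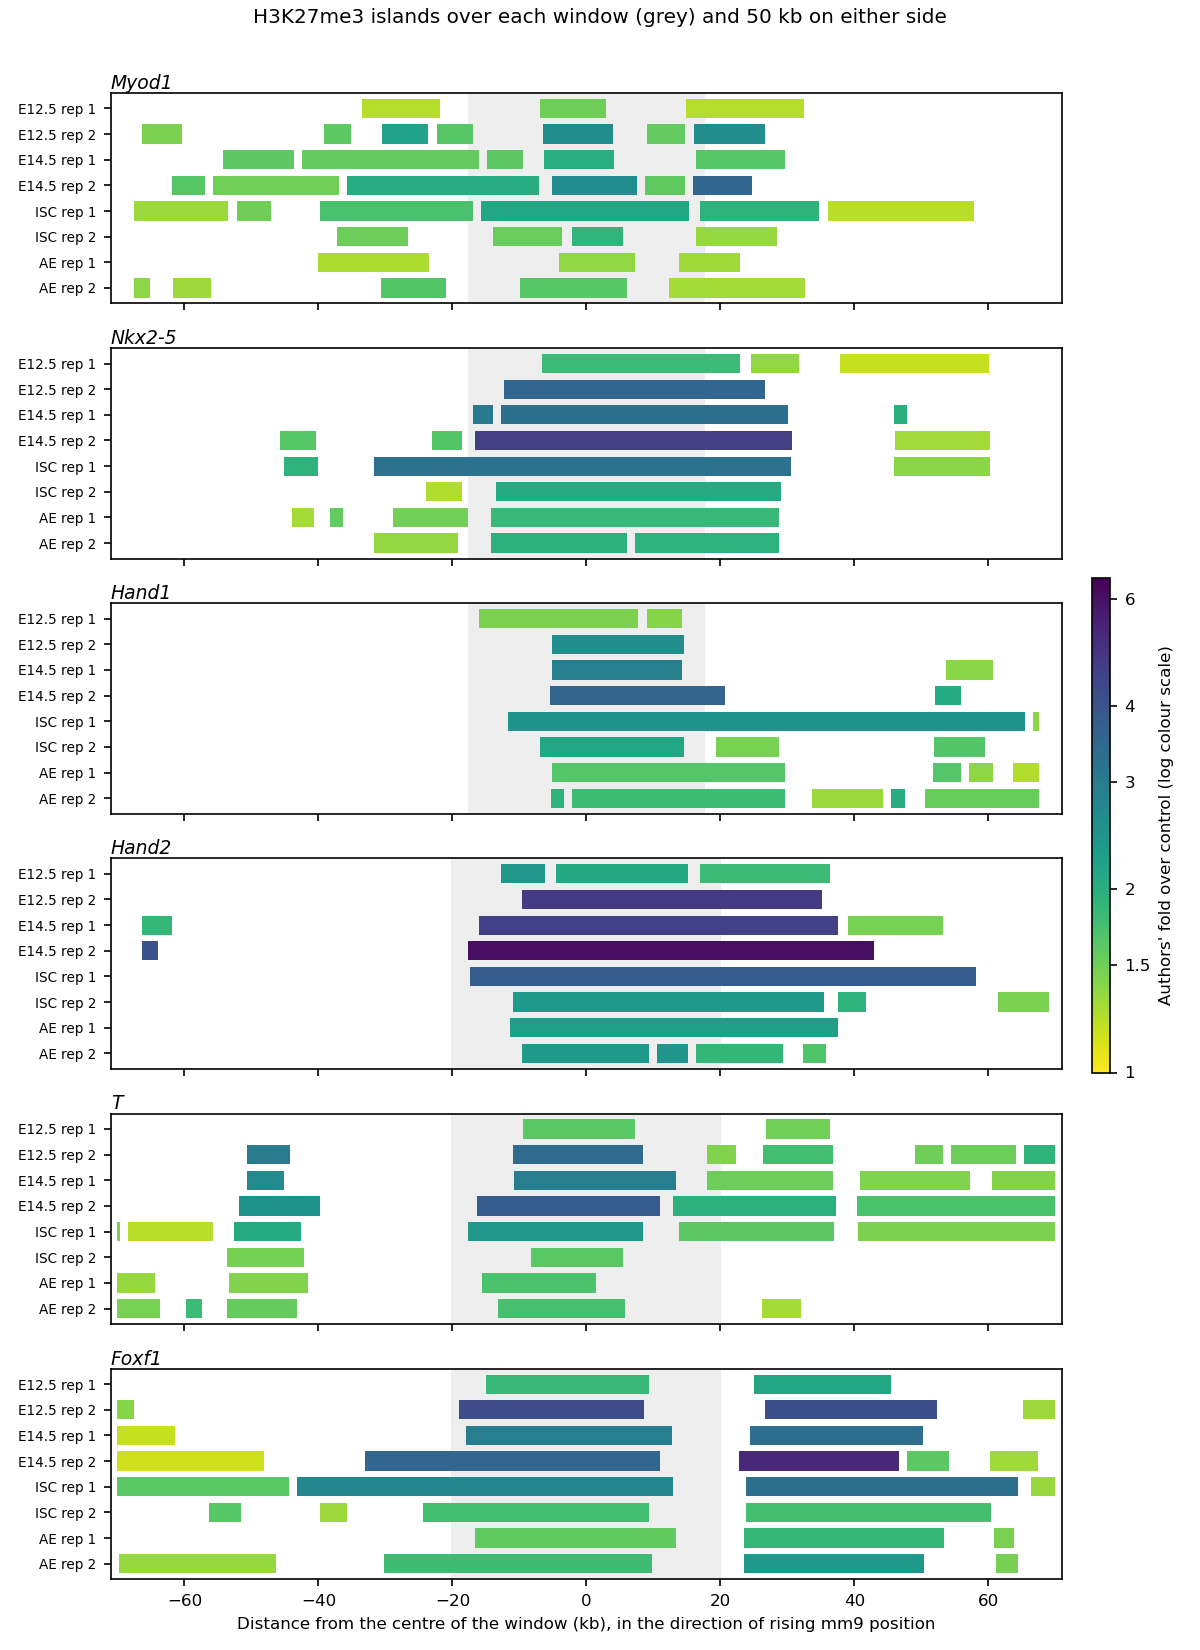
Islands of each library (bars, 1 line per library) over each window (grey) and the 50.0 kb on either side, by distance from the window's centre in kb, with colour for the authors' fold over control on a log scale. The Foxf1 islands end at nearly the same place on the right in all 8 libraries, and the Hand1 islands have no neighbour on the left in any library.

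Folds are the authors' values and are compared here only within a list, apart from the threshold of 1.5 applied to all lists. By the fold of the longest island over the window, Hand2 ranked first of the 6 loci in 8 of 8 lists, at the 95th to 99.98th percentile of all islands of the list. Nkx2-5 had a median percentile of 96.5 (lowest 84.9, highest 99), Foxf1 94.9 (66.7 to 99), Hand1 91.9 (63.1 to 97.0) and T 89.5 (74.0 to 96.5). Myod1 had a median percentile of 44.0 (5.22 to 91.7) and ranked last in 7 of 8 lists. Its longest island was not always the central one, whose percentiles were 73.2 and 88.9 in the E12.5 libraries, 77.5 and 85.8 in the E14.5 libraries, 91.7 and 92.2 in the ISC libraries and 37.3 and 64.3 in the AE libraries. The place of Hand2 depended on the measure: by ChIP reads per kb it was first in 2 of 8 lists, Foxf1 in 5 and Nkx2-5 in 1.

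The ratio of ChIP to control reads, summed over the whole islands that overlap a window, gave the same first place within lists. Within a list the fold of an island is this ratio divided by a single constant. The shared first place is therefore no separate support for the rank by fold. Hand2 had 1.16 and 2.96 ChIP reads per control read in the E12.5 libraries, 4.23 and 3.47 in the E14.5 libraries, 2.97 and 1.70 in the ISC libraries and 3.33 and 1.89 in the AE libraries. In E14.5 replicate 1 this was 4549 ChIP and 1075 control reads, with a 95% interval (from exact Clopper-Pearson bounds) of 3.96 to 4.53, above the 2.84 to 3.26 of Nkx2-5. The Hand2 interval lay above those of all other loci in 4 of 8 lists, both of E14.5, ISC replicate 1 and AE replicate 1, and overlapped at least 1 of them in the other 4, for instance at 1.06 to 1.27 beside 0.964 to 1.21 for Foxf1 in E12.5 replicate 1. Over the 8 libraries the ratio ran from 1.06 to 3.04 at Nkx2-5, 1.08 to 2.74 at Foxf1, 0.837 to 2.72 at Hand1, 0.940 to 2.48 at T and 0.772 to 1.95 at Myod1. The lowest value of every locus was that of E12.5 replicate 1, where ChIP reads were not scaled up to the larger control, so a ratio below 1 is no lack of enrichment. The ratios depend on the library sizes of ChIP and control as well as on enrichment, so they are not compared between libraries. The intervals cover counting error only.

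**Figure D3:**
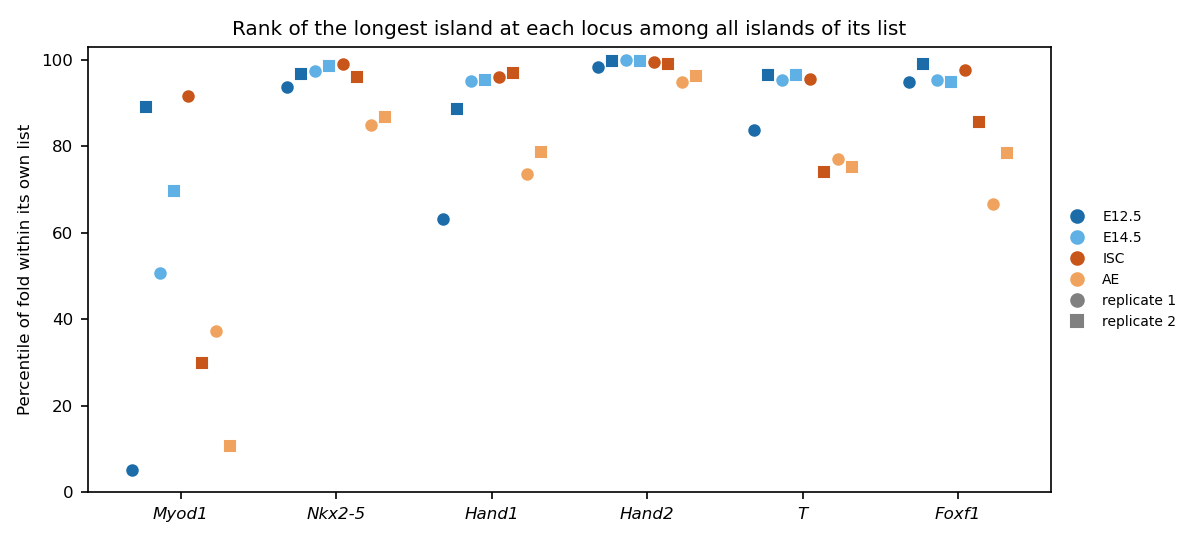
Percentile of the authors' fold among all islands of the same list (y axis) for the longest island at each locus (x axis), with 1 point per library, colours for the populations, circles for replicate 1 and squares for replicate 2. Hand2 lies between the 95th and the 99.98th percentile in the 8 lists and Myod1 ranges from 5.22 to 91.7.

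No locus separated adult from embryonic epithelium. The adult share was 51.1 ± 20.4% and the embryonic share 61.6 ± 19.0% at T (SD, n = 4 libraries each), a difference of -10.5 points with an exact two-sided permutation p of 0.486. At Foxf1 the adult libraries had 76.4 ± 4.13% and the embryonic libraries 71.1 ± 7.79%, a difference of 5.25 points (exact permutation p = 0.314), the lowest p of the 6. Hand2, like T, had the lower adult mean, 79.4 ± 10.5% in adult and 82.9 ± 10.7% in embryonic libraries (difference -3.50 points, exact permutation p = 0.686). Nkx2-5 averaged 91.7 ± 5.70% in adult and 86.7 ± 12.9% in embryonic libraries (5.00 points, exact permutation p = 0.600), Hand1 67.7 ± 10.6% in adult and 65.0 ± 12.8% in embryonic libraries (2.71 points, exact permutation p = 0.629). Myod1 averaged 62.4 ± 21.0% in adult and 56.7 ± 21.9% in embryonic libraries (5.71 points, exact permutation p = 0.657). All 6 adjusted p-values were 1.0 (Benjamini-Hochberg over 24146 tiles and windows), where the smallest p that 4 against 4 libraries allow is 0.0286. Over all tiles and windows 4.97% had an unadjusted exact permutation p under 0.05. Only the smallest p lies under 0.05, and under random arrangement its rate is at most 0.0286. The adjusted test called 0, and could call any only if a large part of all tiles and windows had that smallest p. It therefore could not decide whether single loci differ. The groups overlapped at 6 of 6 loci; without overlap, adult lay above embryonic in 3.67% and below it in 1.31% of the tiles with an island in any library, and in 6.21% and 1.3% of those with an island in all 8. No stretch of any window was covered in 4 of 4 adult and 0 of 4 embryonic libraries, or the reverse. Spread between replicates was wide: they differed by up to 26.9 points at E12.5, 34.9 at E14.5, 46.5 in ISC and 17.7 in AE, so the differences found here lay within the spread between replicates. Without ISC replicate 1 the Myod1 difference was -4.14 and the Hand1 difference -2.52 points, and without E12.5 replicate 1 the Myod1 difference was -1.38 and the Nkx2-5 difference -0.857 points. The Hand1 difference was -0.286 without E12.5 replicate 2 and -0.476 without E14.5 replicate 1. Leaving out E14.5 replicate 2 or AE replicate 2 turned the Hand2 difference to 0.208 or 0.292 points.

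Between the embryonic ages, coverage was higher at E14.5 than at E12.5 without overlap at 5 of 6 loci, against 15.7% of the tiles with an island in any library and 49.4% of those with an island in all 8. The means were 75.8 ± 14% at E14.5 and 47.5 ± 8.49% at E12.5 for T (SD, n = 2 each), 96.3 ± 2.02% at E14.5 and 77.1 ± 11.3% at E12.5 for Nkx2-5, and 92 ± 2.83% at E14.5 and 73.8 ± 0.354% at E12.5 for Hand2. For Myod1 they were 70.0 ± 24.6% at E14.5 and 43.4 ± 11.3% at E12.5, and for Foxf1 77.3 ± 0.354% at E14.5 and 65.0 ± 5.66% at E12.5. Hand1 was the exception, with 60.6 ± 7.27% at E14.5 and 69.4 ± 19.0% at E12.5, a difference of -8.86 points with overlap. This value rests on E12.5 replicate 1, whose Hand1 island had a fold under 1.5: the difference was 4.57 points without that library, 32.6 points with islands of a fold of 1.5 or more, and -22.3 points without E12.5 replicate 2. Tiles had E14.5 below E12.5 without overlap in 4.37% of cases with an island in any library and 5.56% with one in all 8, against 0 of 6 loci. The median difference over the 6 loci was 18.7 points, beside 11 points over tiles with an island in all 8 libraries. Groups of 2 libraries cannot reach a p below 0.333, and no test was made. The E14.5 lists covered 75.9 and 109 Mb and the E12.5 lists 62.5 and 76.0 Mb. At equal covered length, each list kept its islands of highest fold up to the length of the shortest list, so the fold cut differed between lists. The count was then again 5 of 6, against 12.8% of tiles with an island in any library and 52.0% of those with an island in all 8. It was 4 of 6 with each window narrowed by 5.0 kb on both sides, for which no share of tiles was computed.

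From E14.5 to adult stem cells, and from stem cells to enterocytes, 0 of 6 loci were free of overlap. ISC averaged 57.3 ± 32.9% and E14.5 75.8 ± 14% at T, the widest difference of that step at -18.5 points (SD, n = 2 each). Among tiles with an island in any library, ISC lay above E14.5 without overlap in 11.1% and below in 8.33%, and among those with an island in all 8 in 17.9% and 11.7%. The AE mean was below the ISC mean at 6 of 6 loci, by -3.25 points at Foxf1 up to -21.4 points at Myod1, where AE averaged 51.7 ± 13% and ISC 73.1 ± 26.7%. The tiles had AE above ISC without overlap in 2.19% and below in 8.94%, and in 2.37% and 20.2% where all 8 libraries had an island. ISC replicate 1 was above ISC replicate 2 at 6 of 6 loci, by 9.0 to 46.5 points, and both steps turn on it. With ISC replicate 1 alone AE lay below ISC at 6 of 6 loci and ISC above E14.5 at 4, against 80.2% and 66.7% of the tiles with an island in every library used. With ISC replicate 2 alone AE lay above ISC at 3 loci and ISC below E14.5 at 4, against 45.2% and 56.9% of such tiles. The order of ISC relative to its neighbours in the series could therefore not be given at these loci.

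The 50.0 kb on either side showed how far each domain was set off. Left of Hand1 no island was called in any library, and left of Hand2 none in 6 of 8, with 9.2 and 4.8% covered in the E14.5 libraries. The Nkx2-5 window was covered more than its left flank in 8 of 8 libraries and more than its right flank in 7. At Foxf1 the right flank was covered over 40.8 to 88.4%, the highest of the 6 in its lowest library. Left of Nkx2-5 the cover was 38.4 and 10.8% in ISC and 32.8 and 25.2% in AE, against 0.0% in 3 embryonic libraries and 20.0% in E14.5 replicate 2. Left of T it was 46.0 and 22.8% in ISC and 34.8 and 38.4% in AE, against 0.0 to 24.0% in the embryonic libraries. In both flanks the adult mean was higher, 26.8 ± 12% in adult against 5.0 ± 10.0% in embryonic libraries at Nkx2-5 and 35.5 ± 9.67% in adult against 11.9 ± 9.83% in embryonic libraries at T (SD, n = 4 each), and the groups overlapped. The left flank of Foxf1 averaged 47.8 ± 43.2% in adult and 22.9 ± 32.0% in embryonic libraries. Other flanks went the opposite way, with 43.1 ± 26.9% in adult and 55.4 ± 27.4% in embryonic libraries left of Myod1 and 30.7 ± 16.1% in adult and 43.0 ± 23.4% in embryonic libraries right of Nkx2-5. These flanks were described after their values were seen, and the groups overlapped in all but the right flank of Hand1.

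Right of Hand1 the adult libraries had more cover than the embryonic ones. Coverage was 97.6 and 34.0% in ISC and 47.6 and 83.6% in AE, against 0.0 and 0.0% for the E12.5 libraries and 14.0 and 14.0% for the E14.5 libraries. Every adult library was above every embryonic one, with means of 65.7 ± 29.8% in adult and 7.0 ± 8.08% in embryonic libraries (SD, n = 4 each) and a difference of 58.7 points. Tiles of 50.0 kb with an island in any library had adult above embryonic without overlap in 3.9% of 20946 cases. A stretch of 8.0 kb next to the window, chr11:57663201-57671200, was covered in 4 of 4 adult and 0 of 4 embryonic libraries. The flank was singled out after its values were seen, among 12, and gets no test. Without each library in turn the difference ran from 48.1 to 69.3 points. Leaving out a library cannot make groups overlap that were apart, so their staying apart in these settings shows nothing further. At equal covered length the groups were also apart, with 51.1 points. In that setting adult lay above embryonic without overlap in 3.04% of the 50.0 kb tiles with an island in any library. The share was 7.71% of those with an island in every library. The groups right of Hand1 overlapped when islands were held to an FDR of 1e-10, with 45.2 points.

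Right of T the direction was the other way. Coverage was 92.8 and 0.0% in ISC and 0.0 and 11.6% in AE, against 19.2 and 62.8% for the E12.5 libraries and 85.2 and 93.6% for the E14.5 libraries. Both groups overlapped through ISC replicate 1, with means of 26.1 ± 44.8% in adult and 65.2 ± 33.3% in embryonic libraries (SD, n = 4 each) and a difference of -39.1 points. Without ISC replicate 1 the difference was -61.3 points and at equal covered length -65.2 points, in both cases with no overlap. Adult lay below embryonic without overlap in 1.47% of the 50.0 kb tiles with an island in any library, in 3.35% of them without ISC replicate 1 and in 2.54% at equal covered length, where this flank was at 0.0% in all 4 adult libraries. This flank too was chosen after its values were seen.

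**Figure D4:**
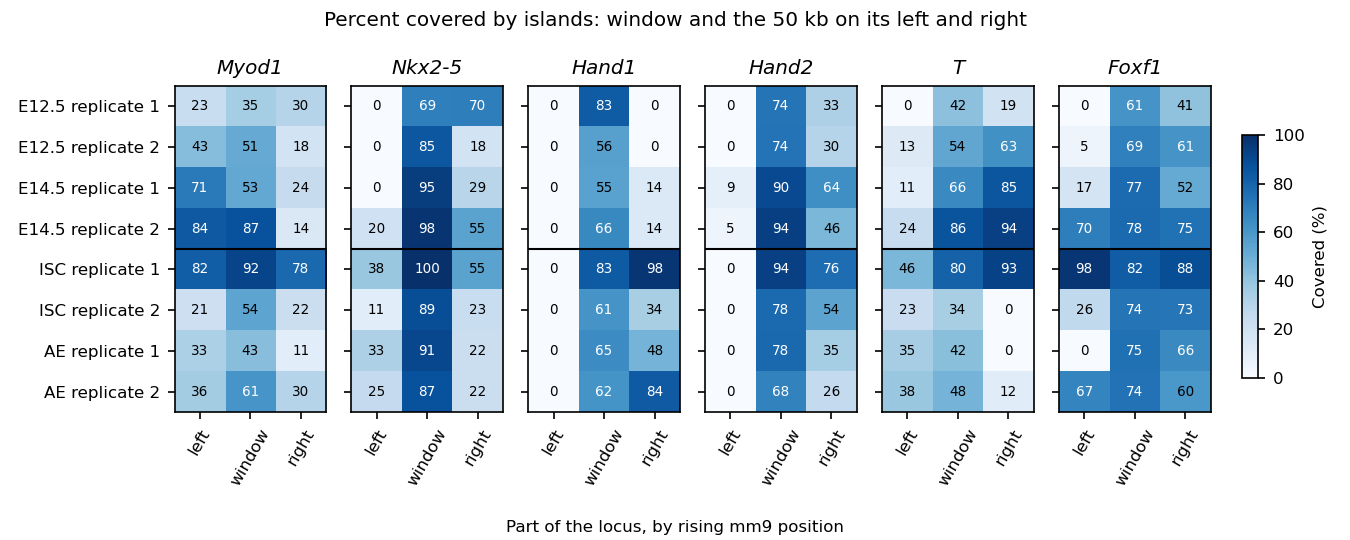
Percent covered by islands in each window and in the 50.0 kb on its left and right (columns, by rising mm9 position), for each library (lines, in the order of the stages, with a bar between embryonic and adult), with darker blue for more cover. The right flank of Hand1 is covered over 34.0 to 97.6% in adult and 0.0 to 14.0% in embryonic libraries, and that of T over 92.8% in ISC replicate 1 and at most 11.6% in the other adult libraries.

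Over the 8 libraries, the shares of Myod1 and T were the closest pair in level, with a mean absolute difference of 8.46 points. In level, the nearest locus to Hand2 was Foxf1 (9.0 points) and that to Nkx2-5 was Hand2 (9.18 points), while Hand1 had no locus nearer than Foxf1 at 13.1 points. This measure compares levels and not how they vary together, and the points share the extent of calling of each list.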

How the data were processed

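The authors' data were 8 deposited lists of H3K27me3 islands, 1 per ChIP library. The build was mm9, and SICER 1.1, Bowtie 1.1.2, SAMtools 1.2 and bcl2fastq 1.8.4 are named in the submitters' processing notes, without roles. The deposited columns, read from the values since there is no header, are island borders, ChIP read counts, control read counts (raw), the authors' p-value, their fold (the ratio of ChIP to control scaled by library size) and their FDR, given as a q-value. No FDR exceeds 0.01. Replicates shared 1 control. Depth outside islands is unknown, and a position outside islands was not called there but may carry a lower level of the mark.

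Islands were painted on a 200 bp grid with Python 3.11.15, numpy 2.4.6 and pandas 2.3.3, and the share of each window covered was taken per library. Coordinates are 1-based. Adult (ISC, AE) and embryonic (E12.5, E14.5) libraries were compared by an exact permutation test over 70 arrangements of single libraries, adjusted over all 40.0 kb tiles with an island in any library and the 6 windows. The code was tested on simulated data. Ratios of ChIP to control reads cover the whole of each island that overlaps the window, and the bounds of their intervals were computed with scipy 1.17.1. All 6 loci were named in every library, with the nearest genes of the table and, for each locus, the one most like it. The members and lists were chosen with earlier results of these data known. Alternatives were a stricter FDR or fold, equal covered length, other window widths, other tile lengths, reads per kb, the replicate number as a block and leaving out libraries. The wider gene list and the cell type markers needed an mm9 annotation and were not analysed here.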

Additional observations from a re-analysis of the deposited data

Results flagged for a closer look

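A sample far from the other 3 of its group was found in 5 of 33 groups of 4 libraries examined over windows and flanks. The limit is set to flag about 1 in 20 groups of independent values drawn from a normal distribution. The groups here reuse the same 8 libraries and are not independent, and some hold repeated values of 0.0%. That rate does not hold for them, so the count of 5 is a description. In 4 of these the library was ISC replicate 1, whose list covered 241 Mb: 83.4% of the Hand1 window, 82.5% of the Foxf1 window, 54.8% of the right flank of Nkx2-5 and 92.8% of the right flank of T, each the highest of the adult libraries. The remaining value was 20.0% of the left flank of Nkx2-5 in E14.5 replicate 2, where the other 3 embryonic libraries had 0.0%. At equal covered length, ISC replicate 1 had the same 83.4% at Hand1 and 82.5% at Foxf1, 26.0% right of Nkx2-5 and 0.0% right of T, and E14.5 replicate 2 had 0.0% left of Nkx2-5.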

How the results depend on the processing

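The 96 adult minus embryonic values under alternatives had no exact p under 0.1, and 13 changed sign. Those with the replicate number as a block or with other tile lengths repeat the main differences by construction and could not change sign. Among 60 values for each step, 3 changed sign for E14.5 minus E12.5 (all at Hand1), 11 for ISC minus E14.5 and 9 for AE minus ISC. With islands of a fold of 1.5 or more the Myod1 difference was -7.71 points and the Hand1 difference 23.4 points (exact permutation p = 0.114). With windows widened by 5.0 kb on each side they were -0.444 and 10.4 points, and that of Nkx2-5 was 11.2. An alternative chosen after seeing the data left out both E12.5 replicate 1 and ISC replicate 1. The differences were then -27.0 at T, -11.3 at Hand2, -11.2 at Myod1, -3.62 at Nkx2-5, -0.167 at Foxf1 and 3.43 at Hand1. At T the exact permutation p was 0.1, the smallest that this split of libraries allows. Adult then lay below embryonic without overlap at 1 locus, T, ISC below E14.5 at 4 and AE above ISC at 3. AE lay below ISC at 1 locus with a fold of 1.5 or more, at 1 at equal covered length and at 2 with narrowed windows. ISC lay below E14.5 at 1 locus at equal covered length and above it at 1 with narrowed windows. No share of tiles was computed under the settings of these counts, so they are not read as results about the loci. Hand2 ranked first in 2 lists by reads per kb. The cause of these changes was not tested.

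Leaving out each library in turn gave adult minus embryonic ranges of -4.14 to 16.0 points at Myod1, -0.857 to 8.67 at Nkx2-5, -2.52 to 8.67 at Hand1, -8.21 to 0.292 at Hand2, -20.3 to -2.38 at T and 1.88 to 7.38 at Foxf1. The Hand1 value was -0.286 without E12.5 replicate 2 and -0.476 without E14.5 replicate 1, the Myod1 value -1.38 without E12.5 replicate 1, and the Hand2 value 0.208 without E14.5 replicate 2. Counts of loci without overlap ran from 5 to 5 for E14.5 above E12.5, 0 to 1 for E14.5 below, 0 to 4 for ISC above and 0 to 4 for ISC below E14.5, and 0 to 3 for AE above and 0 to 6 for AE below ISC. Leaving out a library cannot make groups overlap that were apart, so none of these counts could fall below its value with all libraries. An island in every library was kept at 6 loci, a count that leaving out a library cannot lower. It was kept at 5 with an FDR of 1e-10 or less (all but Myod1) and at 4 with a fold of 1.5 or more (all but Myod1 and Hand1). For these counts, shares of tiles were computed only with all libraries and islands kept or without an ISC library. The other counts are not read as results about the loci.

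Deviations of same-numbered replicates had correlations of -0.200 to 0.129 over 1691 tiles, not all above 0.1, and the labels name no shared batch or day, so the numbers were not treated as pairs. The replicate block restricts only the arrangements of the permutation test. The differences are therefore those without it (5.71 at Myod1, 5.00 at Nkx2-5, 2.71 at Hand1, -3.50 at Hand2, -10.5 at T and 5.25 at Foxf1). With the block the exact permutation p lay between 0.389 and 0.722, where the smallest possible was 0.0556. The number of libraries, 2 per population, limits what any step can show.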
